A study of Mus musculus with 2 samples.

Results

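Retinoic acid is the signalling form of vitamin A, and the 9 genes described here encode the proteins that make, bind, sense and remove it. They are the retinaldehyde dehydrogenases Aldh1a1, Aldh1a2 and Aldh1a3, the nuclear receptors Rara, Rarb and Rarg, the cellular binding proteins Crabp1 and Crabp2, and the degrading cytochrome P450 Cyp26b1. They were chosen by name for these roles, with earlier results of these data known, and are 9 of the 32285 genes listed. Every member was found under its own symbol. Their counts were compared across stromal, ureteric, nephron and endothelial cells of the newborn mouse kidney.

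Cells oxidise retinol to retinaldehyde and then, through the Aldh1a enzymes, to retinoic acid. Retinoic acid enters the nucleus, where a retinoic acid receptor paired with a retinoid X receptor (RXR) sits on DNA and switches its target genes on when the ligand binds, while Cyp26 enzymes oxidise it and so limit where it acts. In the developing kidney the stroma is a known source of retinoic acid, and the signal is known to maintain the receptor tyrosine kinase gene Ret in the ureteric bud, the branching tube that forms the collecting ducts.

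The data were counts of unique molecular identifiers (UMIs, 1 per captured RNA molecule) from 2 droplet single-cell libraries of whole mouse kidney at postnatal day 0 (P0). Both libraries carry the genotype label Rbpj c/+ ; Foxd1cre/+, read as a single conditional copy of Rbpj, the DNA-binding partner of Notch receptors, together with Cre recombinase driven by Foxd1, a gene of stromal progenitors. All cells therefore come from kidneys that share this genotype, libraries of other genotypes were not analysed here, and the comparisons are between kinds of cell. Since Foxd1 drives the Cre, loss of the conditional Rbpj copy would fall mainly on stromal cells and their descendants. Any effect of that loss cannot be told apart from the kind of cell here and was not tested. The labels do not say whether a library is 1 animal or a pool, so no p-value can be read as a spread between animals. Each p-value rests on how far the differences between classes disagreed between these 2 libraries, with a gene's own spread drawn towards that of all tested genes. Rbpj itself stood at 57.1 to 79.2 counts per 1000000 UMIs (CPM) over the 4 classes and both libraries, which does not test the deletion, since counts from the 3′ end of the RNA may lie outside the deleted part.

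A barcode counted as a cell at 3000 or more UMIs, 500 or more genes and at most 20% mitochondrial UMIs, which kept 5529 cells in replicate 1 and 4206 in replicate 2. Of these 9735 cells, 7407 were assigned to the 4 classes by fixed marker genes, none of which belongs to the retinoic acid pathway. The stromal class held 1025 and 992 cells, the ureteric class 178 and 215, the nephron class 2324 and 1450, and the endothelial class 645 and 578. Class totals ran from 7565666 to 86583763 UMIs. The classes kept to their own markers with exceptions: the 8 endothelial markers summed to 5880 and 6636 CPM in endothelial cells and to at most 193 CPM in any stromal, mural, ureteric or nephron class, whereas Meis2, taken as a stromal marker, was highest in endothelial cells. Finer classes divided the stroma by a UMI of Foxd1 or Penk, separated mural cells, the ureteric tip and the collecting duct, and split the nephron into progenitors, early nephron, podocytes, proximal tubule and loop or distal tubule.

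Among the receptors, Rarb is itself a textbook target of retinoic acid, through a response element in a promoter of the gene. The promoter is shown because it carries that element, a direct repeat of half-sites with 5 bases between them. The 250 bases before a RefSeq start of Rarb (GRCm38.p6, chr14:16575477-16575726, minus strand, read 5′ to 3′) are printed with the element in capitals. This start lies inside the annotated span of the gene (chr14:16430839-16819156). The counts per gene used here do not separate transcripts by their start.

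Rarb promoter: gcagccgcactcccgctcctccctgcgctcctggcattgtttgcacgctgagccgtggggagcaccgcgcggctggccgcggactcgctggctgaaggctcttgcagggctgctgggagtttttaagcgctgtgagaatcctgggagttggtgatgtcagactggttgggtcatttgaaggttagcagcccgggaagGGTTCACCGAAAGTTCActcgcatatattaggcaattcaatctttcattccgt

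The element lies 53 to 37 bases before the start. The search allowed the half-site AGGTCA and its variant AGTTCA, and likewise the half-site GGGTCA and its variant GGTTCA. Any pair of these counted if both stood in the same orientation, on either strand, with 5 bases of any kind between them. Such a repeat stood in 32 of 32851 RefSeq promoters of 250 bases before to 50 bases after the start (0.0974%). Of the 9 genes, 7 had promoters in the table, 12 promoters in all, and Rarb was the member with the repeat. Among the other pathway genes Cyp26a1, which encodes another enzyme of retinoic acid breakdown, had it too. Aldh1a3 and Crabp2 were not matched. A match describes letters in this window and not a bound site.

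The highest mean levels of the 9 genes lay in stromal, ureteric or endothelial cells, and most differences between the 4 broad classes exceeded the spread between libraries. Aldh1a2 was highest in stromal cells, with nephron cells close behind, and Aldh1a1, Aldh1a3 and Crabp2 were highest in ureteric cells. Rara, Rarb, Rarg and Cyp26b1 had their highest mean in endothelial cells and Crabp1 in stromal cells. Sums of raw counts per library and class were tested with edgeR's quasi-likelihood test, library as a block, with Benjamini-Hochberg adjustment over 16726 genes per pair of classes and a threshold of 0.05. All 9 members passed the filter on low counts.

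The classes differ in a large part of the transcriptome, so each count of members is given beside the share of all tested genes that passed. Between stromal and ureteric cells 9 of the 9 genes passed, beside 59.6% of all genes, with 5 higher in stromal cells (29.6% of all genes) and 4 in ureteric cells (30.0%). Between stromal and nephron cells 8 passed (59.8%), all of them higher in stromal cells, beside 28.1% of all genes in that direction and 31.7% in the other. Between stromal and endothelial cells 7 passed (50.5%), 5 higher in stromal cells (24.9%) and 2 in endothelial cells (25.6%). Between ureteric and nephron cells 8 passed (36.0%), 6 higher in ureteric cells (16.9%) and 2 in nephron cells (19.1%). Between ureteric and endothelial cells 8 passed (60.7%), 4 in each direction (30.8% higher in ureteric and 29.9% in endothelial cells). Between nephron and endothelial cells 9 passed (65.0%), 5 higher in nephron cells (35.3%) and 4 in endothelial cells (29.7%). The members' median absolute log2 difference ran from 1.082 to 3.222 over these pairs, beside 0.344 to 0.737 for all genes. Of the 54 comparisons of a member 49 passed, beside 55.3% of all genes over the same pairs. Because the members were chosen with earlier results of these data known, these values beside all genes are a description and no test of the list.

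**Figure D1:**
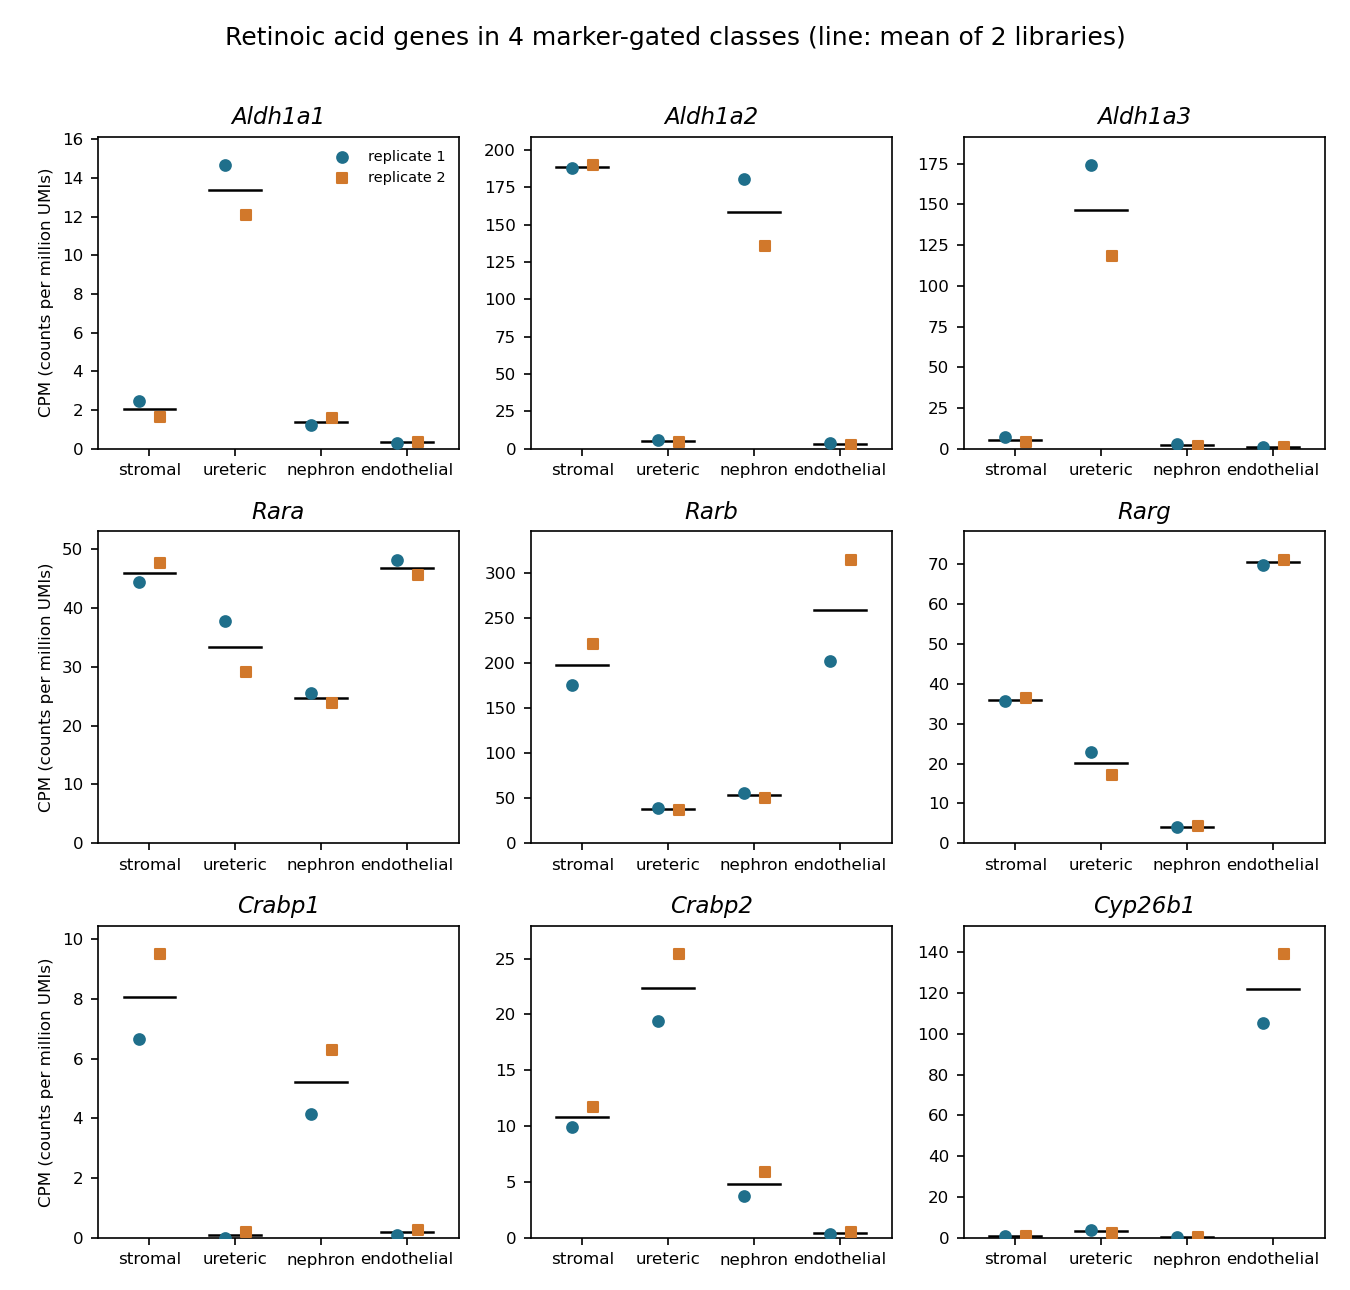
Levels of the 9 genes in counts per 1000000 UMIs (CPM, vertical axes from 0, each with its own scale) in stromal, ureteric, nephron and endothelial cells. Points are the libraries (circles, replicate 1; squares, replicate 2) and lines their mean; Cyp26b1 stands at 105 and 139 CPM in endothelial cells and at most 3.70 CPM in the other classes.

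Aldh1a2 (chr9:71215789-71296243, plus strand, GRCm38) encodes the enzyme that supplies most retinoic acid in the embryo. Its level was 188 CPM in replicate 1 and 190 CPM in replicate 2 in stromal cells, and 180 and 136 CPM in nephron cells. Ureteric cells had 6.08 and 4.52 CPM and endothelial cells 3.74 and 2.16 CPM. Both low classes thus lay far below both high classes in each library: the level in stromal cells was 37.8-fold that in ureteric cells (log2 5.24 ± 0.17 SE, edgeR adjusted p = 1.42e-07) and 63.4-fold that in endothelial cells (log2 5.99 ± 0.18, adjusted p = 1.25e-07). Nephron cells exceeded ureteric cells 29.2-fold (log2 4.87 ± 0.16, adjusted p = 5.62e-07).

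The stromal and nephron classes differed little in Aldh1a2. Stromal cells were higher by log2 0.37 ± 0.12 (edgeR adjusted p = 0.0234), and the library values did not overlap, but the call was lost under 4 of 11 alternatives, whose adjusted p ran from 0.0011 to 0.400. Without the library block it was 0.132, and with mural cells counted as stromal 0.400. In replicate 1 alone the difference was log2 0.06, and in replicate 2 alone 0.48. The finer classes showed unequal levels inside both.

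Within the stroma, Aldh1a2 was highest in cells with UMIs of both Foxd1 and Penk, at 362 and 346 CPM. Cells with Foxd1 alone had 236 and 194 CPM, cells with Penk alone 112 and 77.8 CPM, and stromal cells with neither 110 and 94.7 CPM. Foxd1 marks the cortical stromal progenitors and Penk a more medullary stroma, but a single UMI decides these groups, and the cells with both were also the deeper ones (median 12621 and 18091 UMIs, against 10111.5 and 14671 in cells with neither). The level with Foxd1 alone exceeded that with Penk alone by log2 1.17 ± 0.21 (edgeR adjusted p = 0.00255). Over this pair 2 members passed, Aldh1a2 and Crabp1, beside 3.26% of all genes.

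Mural cells, the contractile cells of vessel walls that derive from the same stroma, had 45.9 and 49.0 CPM of Aldh1a2. Their level was lower than in stroma with Foxd1 alone by log2 2.14 ± 0.23 (edgeR adjusted p = 2.4e-06), and lower than in stroma with Penk alone and with neither. The main gate set no margin between stromal and mural scores, so the mural class can hold cells with stromal markers. Its mean of Col3a1, a stromal marker, was 443 CPM. Over 10 alternatives the difference from Foxd1-only stroma ran from log2 2.14 to 3.55. Members passed in 5, 4 and 2 of 9 cases over these 3 pairs, beside 11.8%, 16.1% and 10.4% of all genes. Between stroma with Foxd1 alone and stroma with neither no member passed in edgeR, 3 had an unadjusted p under 0.05, and 0.133% of all genes passed. With DESeq2, 2 members passed over this pair, Aldh1a2 and Crabp1.

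Along the nephron, Aldh1a2 stood at 214 and 137 CPM in progenitors and at 275 and 240 CPM in early nephron cells, the renal vesicle and S-shaped body stages. Progenitors and early nephron did not pass the test (log2 -0.51 ± 0.20, edgeR adjusted p = 0.0557). Among the differentiated parts, podocytes had 61.4 and 98.2 CPM, proximal tubule 94.6 and 81.4 CPM and loop or distal tubule 64.5 and 45.2 CPM. All of these values lay below both early nephron values, and the early nephron exceeded podocytes by log2 1.55 ± 0.21, proximal tubule by 1.26 ± 0.20 and loop or distal tubule by 2.10 ± 0.21. Each of these differences passed (adjusted p = 3.61e-06, 2.25e-05 and 8.73e-08).

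Aldh1a3 (chr7:66390890-66427517, minus strand) encodes another retinaldehyde dehydrogenase and was highest in the ureteric class. Intercalated cells of the collecting duct, which entered no comparison, held 2 and 0 counts of it. Ureteric cells had 174 and 119 CPM, stromal cells 7.15 and 4.01 CPM, nephron cells 3.15 and 1.57 CPM and endothelial cells 0.77 and 1.08 CPM. No other class came near the ureteric level, which was 25.6-fold the stromal level (log2 4.68 ± 0.18, edgeR adjusted p = 3.32e-07) and 64.5-fold the nephron level. Inside the ureteric class the collecting duct had 215 and 125 CPM and the tip 106 and 98.8 CPM. The tip was lower than the duct by log2 0.80 ± 0.24 (adjusted p = 0.0126), and this call was lost with DESeq2 (adjusted p = 0.0803, in a range of 0.00178 to 0.0803 over 9 alternatives). The tip rests on 31 and 30 cells.

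Aldh1a1 (chr19:20492715-20643465, plus strand), the gene of the remaining dehydrogenase, rests on 481 UMIs over the 13 finer classes. Ureteric cells had 14.7 and 12.1 CPM, stromal cells 2.46 and 1.65 CPM, nephron cells 1.21 and 1.57 CPM and endothelial cells 0.29 and 0.36 CPM. The ureteric values stood apart, 9.82-fold above nephron cells (log2 3.30 ± 0.26, edgeR adjusted p = 3.16e-05) and 6.30-fold above stromal cells. Within the ureteric class its order was the reverse of Aldh1a3: the tip had 25.8 and 22.1 CPM and the duct 9.63 and 8.96 CPM, a difference of log2 1.25 ± 0.39 (adjusted p = 0.0174). In the nephron it was found in podocytes, the filtering cells of the glomerulus, at 6.43 and 13.6 CPM, against 0.80 and 0.74 CPM in the early nephron (log2 3.75 ± 0.46 higher in podocytes, adjusted p = 8.63e-07). Its paralogue Aldh1a7 shares 89.5% of 2017 aligned transcript bases, so counts could be split between them, and 2 genes on the other strand overlap it. Near-empty barcodes, which hold free RNA, had 11.8 and 2.95 CPM of Aldh1a1. With every hemoglobin UMI counted as free RNA, such RNA made up at most 0.915% and 0.554% of ureteric UMIs, and with that amount subtracted ureteric cells still passed against nephron cells (log2 3.37). Aldh1a7 was low, at 7.67 and 2.31 CPM in ureteric cells.

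Tip and collecting duct differed in 4 members in all, beside 36.1% of all genes. The tip was higher in Aldh1a1 and Cyp26b1 (16.4% of all genes in that direction) and the duct in Aldh1a3 and Crabp2 (19.7%).

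**Figure D2:**
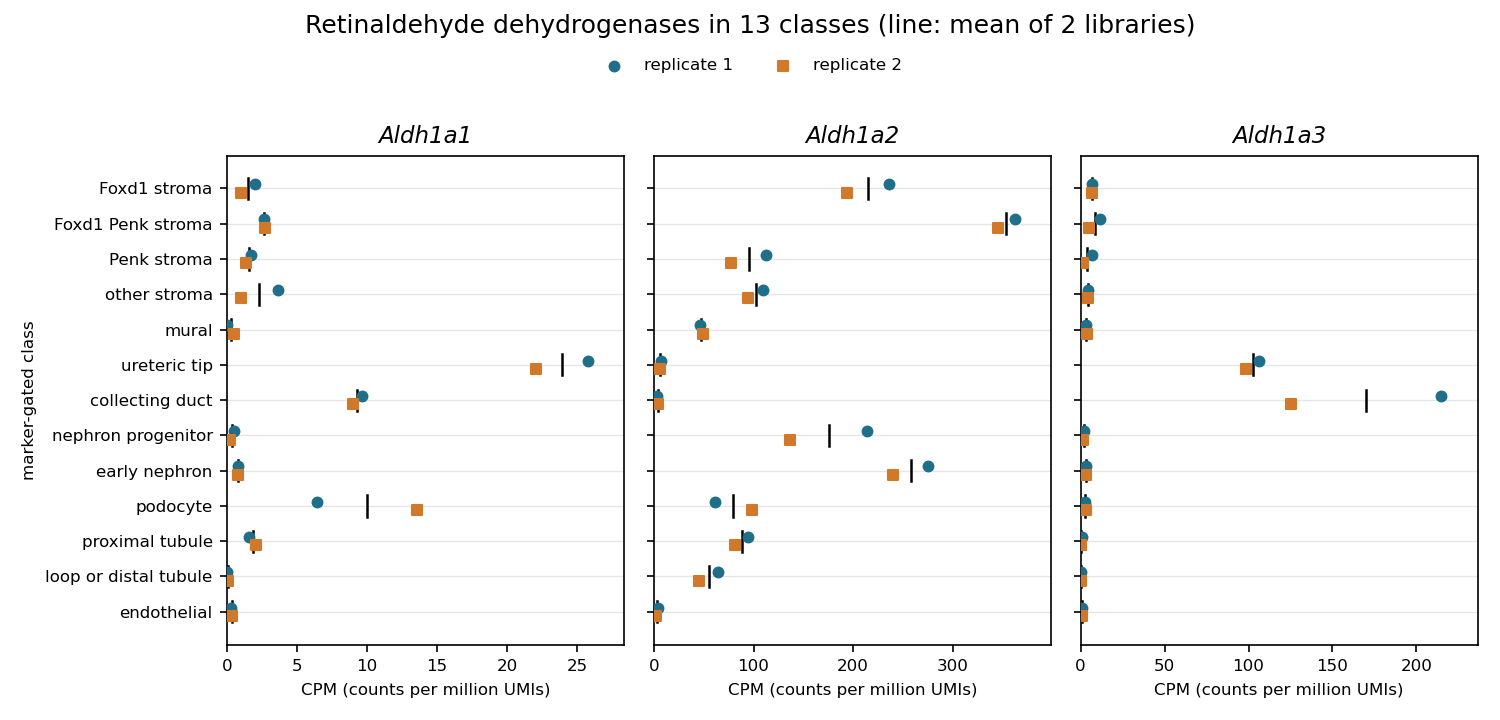
Levels of the 3 retinaldehyde dehydrogenases (horizontal axes from 0, CPM, own scale each) in the 13 finer classes. Points are the 2 libraries and lines their mean; Aldh1a2 spans stroma and nephron with its highest values at 362 and 346 CPM, and Aldh1a3 is high in the collecting duct and ureteric tip.

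The receptors were spread more widely than the enzymes. Rarg (chr15:102234938-102257517, minus strand), which encodes retinoic acid receptor gamma, had the widest span of the 3 over the broad classes. Endothelial cells had 69.7 and 71.1 CPM, stromal cells 35.7 and 36.5 CPM, ureteric cells 23.0 and 17.2 CPM and nephron cells 4.13 and 4.29 CPM. The libraries did not overlap between any of these classes, and all 6 pairs passed. Endothelial cells exceeded nephron cells 18.3-fold (log2 4.20 ± 0.13, edgeR adjusted p = 7.80e-08) and stromal cells 1.998-fold (log2 0.998 ± 0.117, adjusted p = 1.70e-04).

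Within the nephron Rarg was low throughout. Progenitors had 2.78 and 4.25 CPM, early nephron 3.62 and 3.54 CPM, podocytes 3.70 and 4.53 CPM and proximal tubule 1.59 and 2.41 CPM. Loop or distal tubule, with 9.93 and 6.44 CPM, was higher than the early nephron by log2 1.33 ± 0.23 (edgeR adjusted p = 7.52e-05). Barcodes with at most 100 UMIs, which hold free RNA, had 14.4 and 13.7 CPM of Rarg, above every one of these nephron values. With every hemoglobin UMI counted as free RNA, such RNA made up at most 1.05% and 0.4865% of nephron UMIs. Stromal groups other than mural cells ranged from 32.2 to 45.7 CPM.

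Rarb (chr14:16430839-16819156, minus strand), the receptor beta gene, was high in endothelial cells (203 and 315 CPM) and in stromal cells (176 and 221 CPM). These classes overlapped and did not pass the test (log2 0.41 ± 0.17 higher in endothelial cells, edgeR adjusted p = 0.0798). Nephron cells had 55.8 and 50.7 CPM and ureteric cells 39.7 and 37.1 CPM. Both lay below stroma and endothelium in each library: stromal cells exceeded nephron cells 3.95-fold (log2 1.98 ± 0.17, adjusted p = 2.68e-05) and ureteric cells 5.38-fold (log2 2.43 ± 0.19, adjusted p = 1.26e-05). Top2b, on the other strand, overlaps Rarb, and the sources used here do not say how strand was counted.

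The nephron average of Rarb hid opposite ends. Podocytes had 172 and 151 CPM, a level in the range of the stroma, while the proximal tubule, the main site of reabsorption, had 10.1 and 10.6 CPM. Progenitors had 64.4 and 74.9 CPM and the early nephron 51.7 and 44.8 CPM. From the early nephron, podocytes were higher by log2 1.87 ± 0.19 (edgeR adjusted p = 8.21e-08) and the proximal tubule lower by log2 1.94 ± 0.21 (adjusted p = 1.16e-07). Loop or distal tubule, at 52.3 and 40.2 CPM, did not pass against the early nephron (log2 0.09 ± 0.19, adjusted p = 0.719).

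In the stroma, Rarb stood at 205 and 267 CPM with Penk alone, 203 and 237 CPM with both markers, 155 and 181 CPM with Foxd1 alone and 130 and 157 CPM with neither. Penk-only stroma exceeded stroma with neither by log2 0.73 ± 0.19 (edgeR adjusted p = 0.0419), beside 2.95% of all genes in that pair. The call was lost under 4 of 10 alternatives, with adjusted p up to 0.779 under the stricter gate. Mural cells had 60.2 and 103 CPM, lower than each of the 3 tested stromal groups. The difference from Foxd1-only stroma ran from log2 0.945 to 1.93 over 10 alternatives.

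Rara (chr11:98927818-98974942, plus strand), the receptor alpha gene, had the narrowest span of the 9 over the broad classes. Endothelial cells had 48.2 and 45.5 CPM, stromal cells 44.4 and 47.5 CPM, ureteric cells 37.7 and 29.0 CPM and nephron cells 25.5 and 23.9 CPM. The highest pair of classes overlapped and did not pass (log2 0.06 ± 0.11, edgeR adjusted p = 0.707), and without replicate 1 the highest class was stromal. Nephron cells were lower than endothelial cells by log2 1.05 ± 0.11 (adjusted p = 4.78e-05) and lower than stromal cells by log2 0.998 ± 0.105 (adjusted p = 7.70e-05). Progenitors, at 36.8 and 33.1 CPM, exceeded the early nephron, at 19.5 and 18.7 CPM, by log2 0.93 ± 0.18 (adjusted p = 0.000543).

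From progenitors to the early nephron 4 members passed, beside 33.5% of all genes. Rara, Rarb and Crabp2 were higher in progenitors and Crabp1 in the early nephron. From the early nephron to podocytes, proximal tubule and loop or distal tubule, 5, 6 and 7 of the 9 genes passed, beside 59.1%, 62.3% and 57.2% of all genes. These counts lie near that background.

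**Figure D3:**
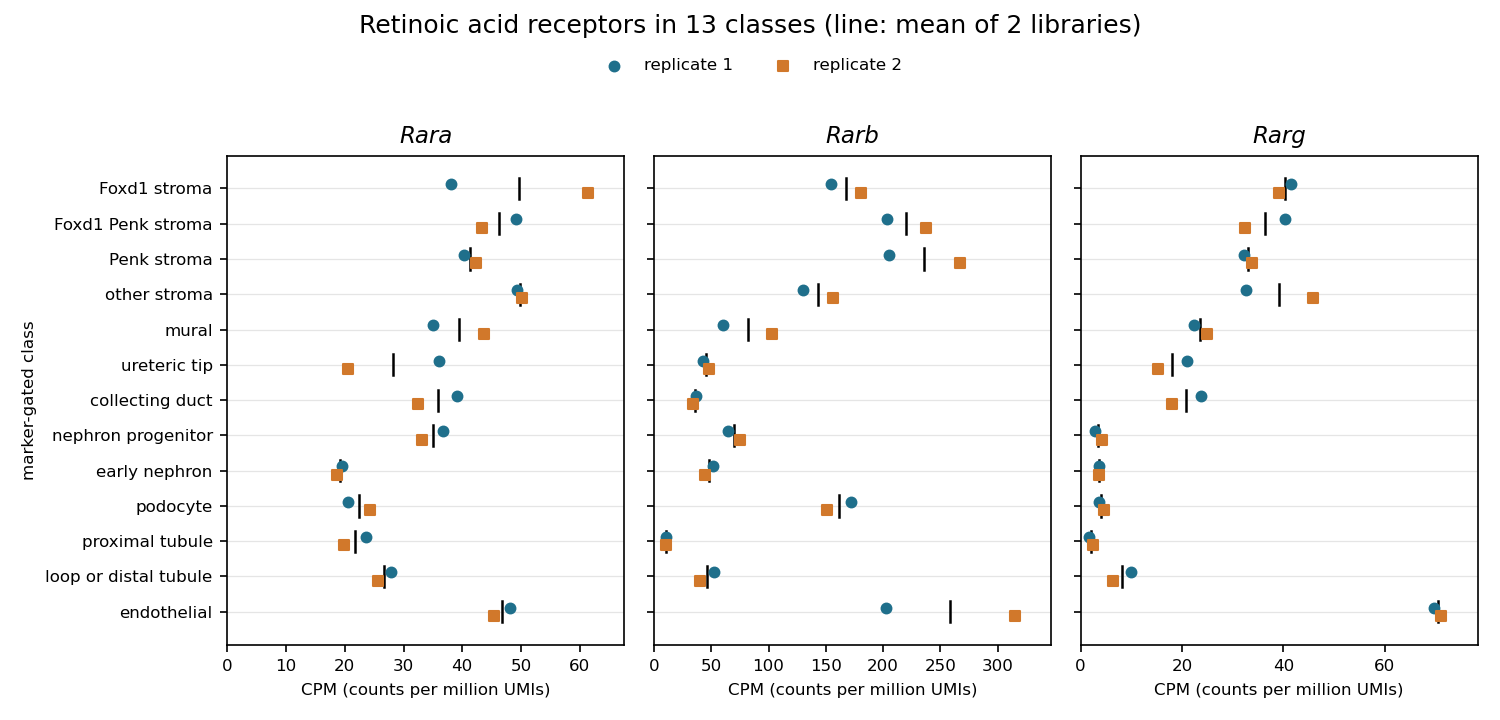
Levels of the 3 retinoic acid receptor genes (horizontal axes from 0, CPM, own scale each) in the 13 finer classes, points for the 2 libraries and lines for their mean. Rarg is low in every nephron class (1.59 to 9.93 CPM), and Rarb is high in podocytes (172 and 151 CPM) and low in proximal tubule (10.1 and 10.6 CPM).

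The cellular retinoic acid binding proteins carry the ligand in the cytoplasm, Crabp2 towards the receptors. Crabp2 (chr3:87948666-87953376, plus strand) had 19.4 and 25.4 CPM in ureteric cells, 9.94 and 11.7 CPM in stromal cells, 3.77 and 5.86 CPM in nephron cells and 0.38 and 0.54 CPM in endothelial cells (4 and 6 counts). The 4 classes did not overlap, and all 6 pairs passed. Ureteric cells exceeded endothelial cells 45.0-fold (log2 5.49 ± 0.26, edgeR adjusted p = 7.09e-07) and stromal cells 1.98-fold (log2 0.99 ± 0.16, adjusted p = 8.53e-04). The latter call was lost under the stricter gate, where the difference was log2 0.31 (adjusted p = 0.405, in a range of 2.48e-05 to 0.405 over 11 alternatives).

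The finer classes put Crabp2 in 3 separate places. The collecting duct had 23.5 and 32.4 CPM, against 7.12 and 6.02 CPM in the tip (log2 2.21 ± 0.32 lower in the tip, edgeR adjusted p = 2.2e-05). Stroma with both Foxd1 and Penk had 24.2 and 24.97 CPM, while every other stromal group lay between 2.25 and 10.7 CPM. Nephron progenitors had 11.5 and 21.9 CPM and the early nephron 3.34 and 3.35 CPM (log2 2.32 ± 0.25 higher in progenitors, adjusted p = 4.77e-07). Podocytes held 2 counts of Crabp2 in all, and the ratio of early nephron to podocytes was 16.7, with an exact 95% interval of 4.53 to 139.

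Crabp1 (chr9:54764748-54773110, plus strand) had 6.65 and 9.50 CPM in stromal cells and 4.15 and 6.28 CPM in nephron cells. Ureteric cells held 0 and 2 counts, and endothelial cells 1 and 3 counts. The ratio of stromal to ureteric cells was 74.6 with an exact 95% interval of 20.4 to 620, and that of nephron to ureteric cells 45.4 with an interval of 12.5 to 376. Stromal cells exceeded nephron cells by log2 0.73 ± 0.21 (edgeR adjusted p = 0.0151). That call was lost without the library block (adjusted p = 0.128) and with DESeq2, over a range of 0.00693 to 0.128.

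Within the stroma, Crabp1 was highest in cells with Foxd1 alone. They had 18.5 and 24.8 CPM, and cells with both markers had 7.08 and 11.3 CPM. Cells with neither had 5.09 and 4.51 CPM and cells with Penk alone 1.71 and 1.53 CPM, and these groups did not overlap. Against cells with neither, the higher level in Foxd1-only cells did not pass in edgeR and passed with DESeq2. Foxd1-only cells exceeded Penk-only cells by log2 3.76 ± 0.49 (edgeR adjusted p = 0.000106). In the nephron the early stage had 8.15 and 9.80 CPM, progenitors 2.47 and 4.25 CPM (log2 1.42 ± 0.33 lower, adjusted p = 0.00239, and 0.0672 without the library block, in a range of 0.000164 to 0.0672), and podocytes a single count.

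The libraries disagreed on Crabp1 in 2 classes. Mural cells had 2.21 CPM in replicate 1 and 12.9 CPM in replicate 2, and proximal tubule 3.66 and 10.5 CPM. Barcodes with at most 100 UMIs moved the same way, at 2.18 and 13.01 CPM. By the hemoglobin measure, free RNA made up at most 1.95% and 0.623% of the UMIs of mural cells and 1.16% and 0.490% of those of proximal tubule. Against mural cells, the higher level in Foxd1-only stroma (log2 1.55 ± 0.39, edgeR adjusted p = 0.0118) was lost without the library block (adjusted p = 0.128, in a range of 0.00119 to 0.128). The difference was log2 2.81 in replicate 1 alone and 0.91 in replicate 2 alone, on a scale of log2(CPM + 0.5).

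Cyp26b1 (chr6:84571414-84593908, minus strand), which breaks retinoic acid down, was a gene of endothelial cells in these data. Endothelial cells had 105 and 139 CPM from 1095 and 1542 counts. Stromal cells had 0.99 and 0.94 CPM, ureteric cells 3.70 and 2.60 CPM and nephron cells 0.52 and 0.42 CPM. Endothelial cells exceeded stromal cells 130-fold (log2 7.02 ± 0.23, edgeR adjusted p = 1.85e-07), ureteric cells 42.3-fold (log2 5.40 ± 0.21, adjusted p = 2.29e-07) and nephron cells 275-fold (log2 8.10 ± 0.21, adjusted p = 4.13e-08). The free RNA of near-empty barcodes held 7.19 and 10.1 CPM of it, above each of these other levels. By the hemoglobin measure, free RNA made up at most 1.985% of the UMIs of any broad class.

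After endothelial cells the next level of Cyp26b1 was in the ureteric tip, at 11.6 and 6.42 CPM from 26 and 16 counts. The collecting duct had 0.42 and 1.45 CPM, lower by log2 2.95 ± 0.55 (edgeR adjusted p = 0.000294). In replicate 1 alone the tip exceeded the duct by log2 3.71 and in replicate 2 alone by 1.83, on the log2(CPM + 0.5) scale. The endothelial markers summed to 57.4 and 41.4 CPM in the tip and 58.0 and 46.7 CPM in the duct. Of these markers Egfl7 alone had a mean of 35.3 CPM in the tip and 27.05 CPM in the duct. Whether endothelial RNA adds to the Cyp26b1 counts of the tip was not tested. All other finer classes lay at or below 3.31 CPM of Cyp26b1, where neighbours in the order overlapped.

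**Figure D4:**
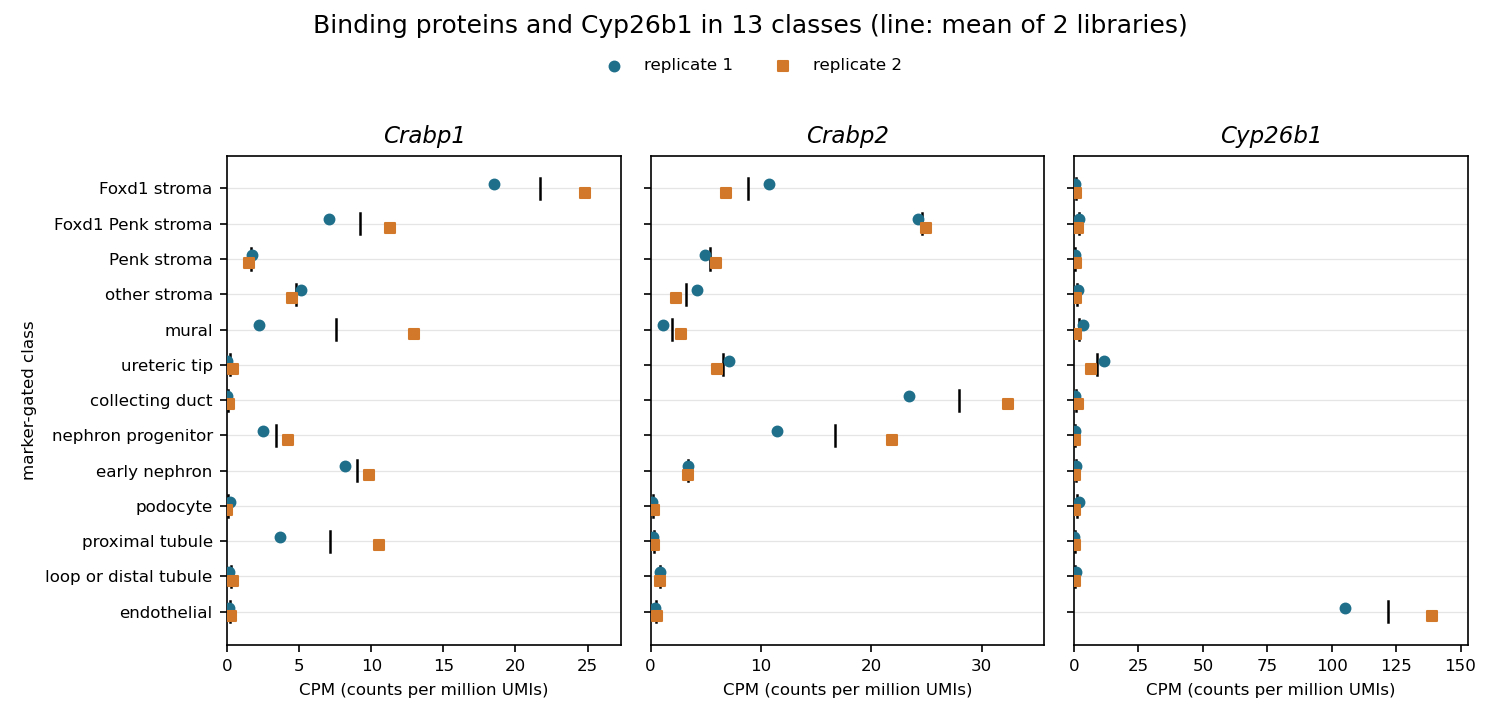
Levels of Crabp1, Crabp2 and Cyp26b1 (horizontal axes from 0, CPM, own scale each) in the 13 finer classes, points for the 2 libraries and lines for their mean. Crabp1 is highest in stroma with Foxd1 alone (18.5 and 24.8 CPM), and the 2 libraries lie apart in mural cells and proximal tubule.

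Shares of cells with a UMI were compared after each cell was thinned to 3000 UMIs, since the classes differ in depth: the median was 10685 and 13185.5 UMIs in endothelial cells, 11138 and 16213 in stromal cells and 21531.5 and 29543 in nephron cells. Cyp26b1 was then found in 17.4% of endothelial cells in replicate 1 and 23.2% in replicate 2 (exact binomial 95% intervals 14.5 to 20.5% and 19.8 to 26.8%, counting error only). Nephron cells, which are deeper, had shares of 0.0861% and 0.0690%. Unthinned, the endothelial shares were 34.1% and 47.6%. Aldh1a2 was found in 32.3% and 28.4% of stromal cells and 36.4% and 25.5% of nephron cells, against 1.395% and 0.519% of endothelial cells. Unthinned, the stromal shares were 53.4% and 53.3% and the nephron shares 78.1% and 75.2%, at a greater depth in the nephron. Aldh1a3 was found in 23.6% and 17.7% of ureteric cells after thinning, against 0.155% and 0.692% of endothelial cells. Crabp1 had no UMI in 178 and 215 thinned ureteric cells. The exact binomial 95% intervals allow a share of cells with a UMI of up to 2.051% and 1.701%. A floor of 3 counts of the total would be 1.685% and 1.395%. Unthinned, 0 and 2 of these cells had a UMI.

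The endothelial class joined the receptors with Cyp26b1, so its cells were divided at each library's median of Plvap, a gene of fenestrated capillaries. This division was chosen after the values were seen, and its values are a description without a test. Cyp26b1 was at 77.8 and 89.6 CPM in cells with Plvap above the median and at 128 and 182 CPM in the others. Rarb had the opposite order, at 298 and 465 CPM above the median and 122 and 184 CPM in the others. Rarg was at 62.2 and 65.0 CPM against 76.2 and 76.5 CPM, and Rara at 45.8 and 38.3 CPM against 50.1 and 51.7 CPM. The direction was the same in both libraries for each of these genes.

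**Figure D5:**
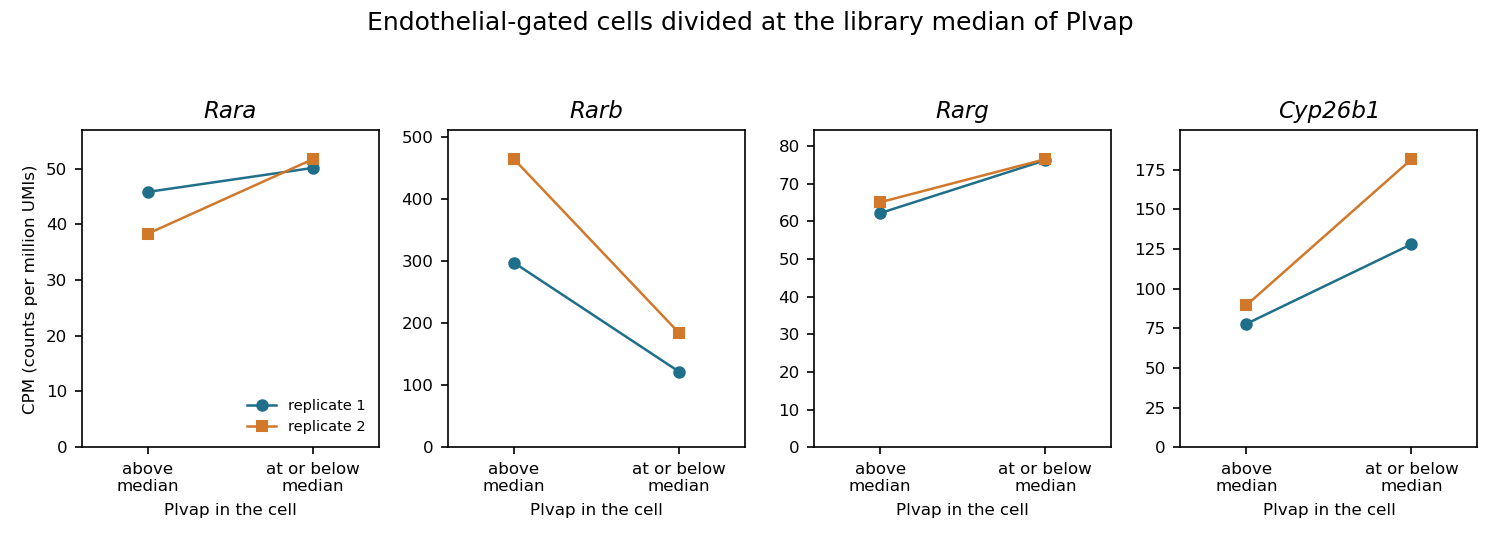
Levels of Rara, Rarb, Rarg and Cyp26b1 (vertical axes from 0, CPM, own scale each) in endothelial cells above, or at or below, the library's median of Plvap; lines join the values of a library. Rarb is higher in cells with more Plvap (298 and 465 CPM against 122 and 184 CPM) and Cyp26b1 is lower (77.8 and 89.6 CPM against 128 and 182 CPM).

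The genes with the most similar pattern were sought among 12886 genes that reached 10 CPM in a class, by Pearson's r of log2(mean CPM + 1) over the 13 finer classes, which share libraries and depth. For Cyp26b1 they were Vsir (r = 0.982) and 5033406O09Rik (r = 0.975), for Rarb Maml1 (r = 0.955) and Flrt2 (r = 0.9503), and for Rarg Mdfi and Ifitm3 (both r = 0.953). For Rara they were Cracr2a (r = 0.926) and Lgals3bp (r = 0.923). For Aldh1a2 they were Gm4117 (r = 0.930) and Hoxc5 (r = 0.916), for Aldh1a3 Gm43305 (r = 0.944) and Styk1 (r = 0.9395), and for Aldh1a1 St6galnac2 (r = 0.877) and Slc41a2 (r = 0.859). Crabp2 was closest to Gfra4 (r = 0.908) and Sgcd (r = 0.892), and Crabp1 to Cct8 (r = 0.839) and Bmp6 (r = 0.838). Among the members themselves the highest r was that of Rara with Rarg (0.876), and the lowest that of Aldh1a2 with Cyp26b1 (-0.675).

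The wider pathway was followed through 38 other genes of retinol uptake, storage and oxidation, receptor partners, cofactors, breakdown and response, of which 31 passed the filter. Of their 186 comparisons between broad classes 125 passed, beside 55.3% of all genes over the same pairs. The share of all tested genes that passed in the same direction follows each count. Stromal cells were higher in 12 (29.6%) and lower in 9 (30.0%) of the 31 genes against ureteric cells. Against nephron cells they were higher in 14 (28.1%) and lower in 8 (31.7%). Against endothelial cells they were higher in 14 (24.9%) and lower in 5 (25.6%). Ureteric cells were higher in 11 (16.9%) and lower in 7 (19.1%) against nephron cells. They were higher in 14 (30.8%) and lower in 6 (29.9%) against endothelial cells. Nephron cells were higher in 14 (35.3%) and lower in 11 (29.7%) against endothelial cells. The median log2 difference of the list lay between -0.13 and 0.29, that of all genes between -0.03 and 0.07.

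In uptake and storage, Stra6, the membrane receptor for retinol carried by Rbp4, had 24.5 and 15.3 CPM in ureteric cells and 0.10 and 0.36 CPM in endothelial cells (log2 6.27 ± 0.50, edgeR adjusted p = 1.32e-05). Rbp4, the carrier, had 24.7 and 26.9 CPM in stromal cells and 1 count in each library of endothelial cells. Lrat, which esterifies retinol for storage, was low in each broad class, at 3.44 and 2.31 CPM in ureteric cells and 1.53 and 0.72 CPM in endothelial cells. Its higher level in the ureteric tip is given further below. In retinol oxidation, Adh1, an alcohol dehydrogenase, had 94.9 and 72.5 CPM in ureteric cells against 2.44 and 3.57 CPM in nephron cells (log2 4.84 ± 0.22, adjusted p = 1.83e-06).

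Of the receptor partners, Rxrg had 2.63 and 3.54 CPM in stromal cells and 0.14 and 0.03 CPM in nephron cells (log2 5.14 ± 0.54, edgeR adjusted p = 7.60e-05). Cyp2s1, a cytochrome P450 listed with breakdown, had 46.0 and 33.6 CPM in stromal cells, 4.78 and 8.36 CPM in nephron cells and 0.48 and 0.36 CPM in endothelial cells. Its lowest level was thus in endothelial cells, where Cyp26b1 was high. Ureteric cells had 2.38 and 6.06 CPM of Cyp2s1, so both genes were low there. The other Cyp26 genes did not reach the filter: Cyp26a1 was at 0.45 and 0.56 CPM in nephron cells, and Cyp26c1 held counts in nephron cells of replicate 1 alone.

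Among genes known to respond to retinoic acid, Ret had 94.4 and 64.0 CPM in ureteric cells and less than 1 CPM in the other classes, a difference of log2 8.39 ± 0.23 from nephron cells (edgeR adjusted p = 2.51e-07). Ecm1, an extracellular matrix gene, had 209 and 207 CPM in stromal cells and 1.91 and 2.42 CPM in nephron cells (log2 6.69 ± 0.15, adjusted p = 1.28e-07). Rarres2, which encodes chemerin, had 152 and 136 CPM in stromal cells and 1.15 and 1.62 CPM in endothelial cells (log2 6.66 ± 0.29, adjusted p = 6.43e-07). These response genes were thus high in different classes, Ret in the ureteric class and Ecm1 and Rarres2 in the stroma.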

How the data were processed

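UMI counts per gene and barcode were used as deposited. The authors produced these raw counts with Cell Ranger 4 per the file headers, while the submitters' processing notes name Cell Ranger 6.0.1 and mm10. The matrices hold all barcodes (200331687 and 173166168 UMIs), and the cells held 73.1% and 74.5% of them. The members, lists and tests were chosen with earlier results of these data known. All 9 members are named, with up to 3 genes of the pathway list per broad comparison and the 2 most similar genes per member, and features named outside this rule are said to be so.

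A marker's value in a cell was its count per 10000 UMIs over the 75th percentile of cells with a count, capped at 1. A class score was the mean of its 3 highest markers. The best of 11 classes was taken at a score of 0.5 or more if the next lay at or below 0.7 of it (0.8 between finer nephron and ureteric classes), stromal and mural cells not being separated from each other by this condition. The markers preceded the files, and the scoring rule was set after them, without the members' values. Cells near the limit numbered 614, and 1370 cells fitted no class. This condition leaves out cells with markers of more than 1 class and was the only step against doublets. Scrublet (scanpy 1.11.5) marked 387 cells, of which 155 stood in the 4 classes and were left out in an alternative. The libraries share 6 cell barcodes.

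Class sums of each library were tested with edgeR 4.0.16 (limma 3.58.1, R 4.3.3; filterByExpr, TMM, two-sided) in a model of class plus library block, because all classes of a library come from the same cell suspension. The SE given after ± was derived from the test, as the absolute log2 difference divided by the square root of its F statistic. The broad fit held 8 sums and 3 residual degrees of freedom. The finer fit held 26 sums, 12 degrees of freedom and 16555 genes, and 11 pairs were tested. Alternatives covered cell filters, doublets, gate, free RNA, scaling, filter, test and block (DESeq2 1.42.0). Gene positions are from GENCODE M21 (GRCm38) and promoters from RefSeq (GRCm38.p6).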

Additional observations from a re-analysis of the deposited data

Results flagged for a closer look

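Members were also read in cells that entered no comparison. Immune cells, 145 and 87 of them, held Rara at a mean of 60.2 CPM (45.7 and 74.7 CPM from 74 and 100 counts), above the 29.2 and 26.3 CPM of near-empty barcodes. Intercalated cells of the collecting duct, 48 and 42 in number, held Aldh1a1 at a mean of 21.7 CPM (22.2 and 21.3 CPM), close to the ureteric tip, and Rarb at a mean of 57.4 CPM (53.9 and 60.8 CPM). For Rarb the near-empty barcodes had 52.7 and 57.9 CPM. By the hemoglobin measure, free RNA made up at most 1.11% and 0.403% of the UMIs of intercalated cells. No control cells exist for these values, and they were not tested.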

How the results depend on the processing

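Each member's difference was recomputed under 9 to 11 alternatives. Of 89 calls, 74 passed under each of those alternatives and 15 lost the call under 1 or more, with their direction kept. The direction turned for Crabp1 between ureteric and endothelial cells, which was not called: it was log2 0.16 with Scrublet doublets removed, on 2 and 4 counts. Calls between broad classes numbered 49 in the main fit and 45 to 51 over the alternatives, those between finer classes 40 and 33 to 45, and those of the pathway list 125 and 111 to 131. No replicate block gave the lowest broad counts, 45 for the members and 111 for the list, and 36 for the finer classes. The stricter gate gave 33, over 10 pairs, since too few tip cells were left. In either library alone all 49 and all 40 calls kept their direction, and the list kept 124 and 125 of 125. Those calls were made on the same 2 libraries together, so this agreement was largely built in and is no separate check. Total counts without TMM shifted the median of all genes by up to 0.29 on the log2 scale, for early nephron against proximal tubule, and there Rara lost its call (log2 -0.19). The highest broad class of a member held for 8 of 9 without replicate 1 and for 9 without replicate 2; by share of cells it was the same for 8 members at 3000 UMIs and 6 at 10000. Low members (Crabp1 in ureteric cells, Cyp26b1 outside the endothelium) are limited by depth.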

Other observations

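Of 32 other pathway genes tested between the ureteric tip and the collecting duct, 7 were higher in the tip and 4 in the duct (edgeR adjusted p below the threshold), beside 36.1% of all genes, so that the count lies near the background. The genes named here were chosen after their values were seen. Stra6 had 80.9 and 63.4 CPM in the tip and 0.42 and 0.13 CPM in the duct (log2 7.99 ± 0.43, edgeR adjusted p = 1.46e-10). Lrat had 11.6 and 9.24 CPM in the tip and 1 count in the duct. Ret had 297 and 255 CPM in the tip and 6.28 and 4.09 CPM in the duct. The duct held Adh1, at 133 and 98.3 CPM against 1.33 and 1.205 CPM in the tip (log2 6.62 ± 0.40 higher in the duct, adjusted p = 6.17e-10), together with Aldh8a1 at 9.21 and 23.5 CPM against 0.44 and 0.40 CPM.

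Fabp5, which binds fatty acids and retinoic acid, had 934 and 757 CPM in endothelial cells and 75.7 and 44.5 CPM in stromal cells (log2 3.87 ± 0.18 higher in endothelial cells, edgeR adjusted p = 8.68e-07). The coactivator gene Ncoa1 was lower in endothelial cells, at 48.0 and 60.6 CPM against 151 and 174 CPM in stromal cells (log2 1.55 ± 0.13, adjusted p = 3.10e-05). Dhrs3, which returns retinaldehyde to retinol, had 114 and 150 CPM in stromal cells and 30.2 and 35.3 CPM in nephron cells (log2 2.10 ± 0.10, adjusted p = 7.26e-07). Rarres1 was found in podocytes, at 36.6 and 25.6 CPM, and at most 7.66 CPM in every other class compared.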
